A study of Mus musculus with 36 samples.

Results

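The 3 colony-stimulating factor genes *Csf1*, *Csf2* and *Csf3* were followed in mouse fibroblast-like chondrocytes, a conditionally immortalised line, exposed to the inflammatory cytokine IL-1β. The members were the rows with these 3 gene symbols, 3 of the 53421 genes in the table of read counts and of the 52416 in the table of TPM values, a level per transcript length and library size. Cells were transfected with a non-targeting siRNA pool (NT) or with siRNA against *Ift88* (IFT88siRNA), which encodes a carrier protein of intraflagellar transport, the system that builds the primary cilium. Each of the NT and IFT88siRNA sets was kept in medium only (0 h) or given IL-1β at 10 ng/ml for 1, 2, 4, 8 or 24 h. This gave 12 conditions with 3 libraries each and 36 libraries in all, every one from the same line and every one transfected. The sample labels give the siRNA at 50 nM and the study's methods give a lower concentration. The labels do not say whether the 3 libraries of a condition came from separate cultures, so that the p-values below measure the spread between these libraries, which may be technical.

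Colony-stimulating factors are secreted glycoproteins named for the blood cell colonies that they allow to grow from bone marrow. CSF1 (macrophage CSF) keeps monocytes, macrophages and osteoclast precursors alive through the receptor tyrosine kinase CSF1R, and stromal cells are its usual source. CSF2 (granulocyte–macrophage CSF) acts through a receptor of an α chain and a shared β chain, and CSF3 (granulocyte CSF) acts through CSF3R to drive the production of neutrophils. Inflammatory cytokines raise *Csf2* and *Csf3* in fibroblasts, chondrocytes and endothelial cells, partly by transcription through NFκB, AP-1 and C/EBP factors and partly by a longer life of mRNAs that carry AU-rich elements in their 3′ UTR.

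*Csf1* (ENSMUSG00000014599) lies on the minus strand of GRCm38 at chr3:107741048-107760469 and has 7 annotated transcripts, of which 6 are protein coding. *Csf2* (ENSMUSG00000018916) lies on the minus strand at chr11:54247271-54249667 with 1 transcript of 4 exons and 800 bases. *Csf3* (ENSMUSG00000038067) lies on the plus strand of the same chromosome at chr11:98701263-98703629 with 1 transcript of 5 exons and 1413 bases. Stretches of 30 bases from the 3′ UTRs are shown because the genes differed in this feature of their mRNAs. They are written 5′ to 3′ along the mRNA in DNA letters, from the GENCODE transcripts of GRCm38, with each ATTTA pentamer in capitals (adjoining pentamers share a base), and each is the stretch with the most pentamers in its UTR.
*Csf1*, chr3:107741109-107741138 (−): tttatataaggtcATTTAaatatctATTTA
*Csf2*, chr11:54247329-54247358 (−): tttttaaatATTTATTTATTTATTTATTTA
*Csf3*, chr11:98702984-98703013 (+): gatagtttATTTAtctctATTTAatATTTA

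The pentamer ATTTA, searched on the mRNA strand in the longest annotated 3′ UTR of each gene, is the core of AU-rich elements. The *Csf2* 3′ UTR of 317 bases held 9 pentamers and 4 copies of the overlapping nonamer TTATTTATT. The *Csf3* 3′ UTR of 669 bases held 6 pentamers, and that of *Csf1*, of 2111 bases, held 4, and neither held the nonamer. Per length these were 28.4 pentamers per kb for *Csf2*, 8.97 for *Csf3* and 1.89 for *Csf1*. Among 13406 tested genes with an annotated 3′ UTR, 0.0448% were as dense as *Csf2*, 1.14% as dense as *Csf3* and 37.0% as dense as *Csf1*. The nonamer was present in 8.16% of these genes, and 0.283% had as many copies as *Csf2*. These matches describe the letters of the mRNAs, and no mRNA stability was measured here.

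**Figure D1:**
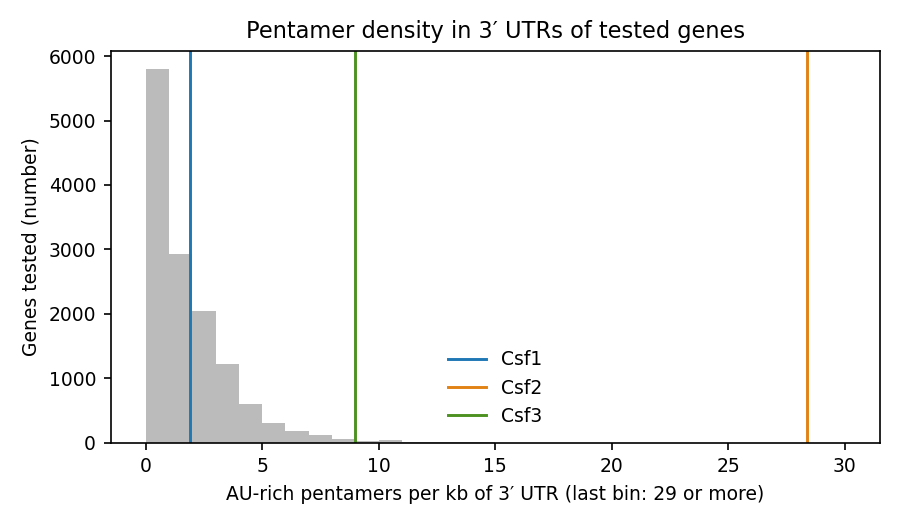
Number of tested genes (vertical axis) by the number of ATTTA pentamers per kb of 3′ UTR (horizontal axis, last bin 29 or more), with vertical lines for the 3 genes. *Csf2*, at 28.4 per kb, lies at the far right of the distribution, *Csf3* lies at 8.97 and *Csf1* at 1.89.

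Upstream sequence is shown for *Csf1* because it held the only match to a searched motif. The 250 bases before the RefSeq start site (GRCm38.p6, minus strand) are chr3:107760470-107760719, with the match in capitals.
*Csf1* upstream: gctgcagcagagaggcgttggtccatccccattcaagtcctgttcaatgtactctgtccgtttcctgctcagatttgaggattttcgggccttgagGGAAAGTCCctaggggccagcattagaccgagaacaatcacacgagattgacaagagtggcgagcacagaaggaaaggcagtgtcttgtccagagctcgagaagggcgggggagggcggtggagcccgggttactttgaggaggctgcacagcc
The match was to the κB-type motif GGNNTTTCC on the opposite strand, which 4.93% of 32851 upstream windows of this length held. GGNNATTCC (in 2.36% of windows), the CD28-response-type GAGATTCC (0.755%), the AP-1 motif TGANTCA (6.75%), the C/EBP-type TTNNGNAAT (10.2%) and TATAAA (12.4%), all searched on both strands, had no match there. The corresponding window of *Csf2* (chr11:54249900-54250149) had no match to any of them, but its RefSeq start lies 232 bases upstream of the GENCODE start, so that the window is not the region next to the annotated mRNA. The upstream sequence of *Csf3* was not analysed here.

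Total counts on genes were from 19337022 to 38304127 per library, with a median of 21672803.5 in NT and 25873754 in IFT88siRNA. Levels are given as CPM, the counts on genes brought to a common library size with TMM scaling, or as TPM where genes of different length are compared. *Ift88* itself was at 22.9% to 36.1% of its NT level in IFT88siRNA, and passed the test at each of the 6 time points. Fibroblast markers were well expressed, with 10 of 10 reaching 1 TPM in a library and summed levels from 3072 to 6248 TPM in NT libraries and from 3342 to 6594 TPM in IFT88siRNA libraries. Of 10 chondrocyte markers 6 reached 1 TPM, with sums from 30.6 to 160 TPM in NT and from 37.7 to 138 TPM in IFT88siRNA. *Col2a1* was at 1.43 to 9.05 TPM, *Acan*, the cartilage aggrecan gene, stayed at or below 0.206 TPM and *Col9a1* had at most 3 counts. *Col11a1* (11.7 to 92.9 TPM), *Sox9* (5.98 to 34.5 TPM) and *Comp* (4.18 to 22.0 TPM) were better expressed.

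Markers of blood cells were counted because macrophages, neutrophils, mast cells and T cells can also make colony-stimulating factors. Of 10 macrophage markers 3 reached 1 TPM, with sums from 8.11 to 16.7 TPM in NT and from 7.95 to 14.9 TPM in IFT88siRNA, and *C1qa* had 0 counts in all 36 libraries and *Ptprc* at most 5. The 3 were *Cd68* (4.32 to 12.3 TPM), *Lyz2* (up to 4.38 TPM) and *Aif1* (up to 3.14 TPM). Of 7 neutrophil markers 2 reached 1 TPM, with sums from 0.363 to 25.3 TPM in NT and from 0.511 to 17.3 TPM in IFT88siRNA, and *Mpo* was at 0 counts throughout and *S100a9* at most at 1. Among them *S100a8* alone reached up to 24.3 TPM, and its part in the results below was not tested. The T cell (1 of 4 reaching 1 TPM), mast cell (0 of 3) and endothelial (2 of 5) lists summed to at most 2.91 TPM in any library.

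*Csf1* was already an abundant transcript before IL-1β, and IL-1β raised it within 1 h, to a maximum at 2 h. In RNA of whole cultures, more cells expressing a gene and more RNA per cell cannot be told apart. In NT cells at 0 h it had 17385, 17372 and 16146 counts, which is 722 ± 10.7 CPM (mean ± SD, n = 3 libraries here and for each condition below). At 1 h the counts were 62554, 70209 and 73398 (3332 ± 283 CPM) and at 2 h they were 105993, 124935 and 122602 (5554 ± 125 CPM). Every library at 1 and 2 h was above every library at 0 h, and every library at 2 h above every library at 1 h. The counts fell to 40019, 48965 and 44372 at 4 h (2290 ± 59.1 CPM), to 25155, 26468 and 31980 at 8 h (1183 ± 16.5 CPM) and to 24453, 25127 and 27648 at 24 h (928 ± 12 CPM). The mean was thus 4.62, 7.69, 3.17, 1.64 and 1.29 times the 0 h mean at the 5 times. Against 0 h, the log2 change was 2.20 at 1 h, 2.94 at 2 h (standard error 0.0478, adjusted p = 2.74e-24), 1.67 at 4 h and 0.72 at 8 h, and these passed both thresholds, an adjusted p-value under 0.05 by edgeR's quasi-likelihood test and a fold change over 1.5. At 24 h the log2 change was 0.36 (edgeR adjusted p = 3.19e-07), below the fold threshold.

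In IFT88siRNA cells *Csf1* followed the same order of times. Its counts were 18136, 17952 and 17922 at 0 h (627 ± 8.02 CPM), 53724, 61530 and 62534 at 1 h (2377 ± 169 CPM) and 126611, 116409 and 132506 at 2 h (5320 ± 30.6 CPM). They were 44023, 42853 and 50970 at 4 h (2100 ± 53.5 CPM), 26003, 29461 and 32648 at 8 h (1105 ± 78.3 CPM) and 22262, 36339 and 27484 at 24 h (880 ± 8.34 CPM). The mean at 2 h was 8.48 times the 0 h mean, and the log2 changes from 0 h were 1.92, 3.08, 1.74, 0.82 and 0.49, the last below the fold threshold. Ordered by mean CPM, the 12 conditions of *Csf1* gave 11 neighbouring pairs, of which 2 had overlapping libraries.

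*Csf2* had no counted read before IL-1β and was expressed at a low level from 1 to 4 h after it. All 6 libraries at 0 h, NT and IFT88siRNA, had 0 counts, and the limit that this allows, 3 counts over the group, is 0.0473 CPM on unscaled totals in NT and 0.0382 in IFT88siRNA. The TPM estimates were also 0, except for 0.0999 TPM in IFT88siRNA replicate 2. In NT it had 26, 15 and 28 counts at 1 h (1.14 ± 0.423 CPM), 24, 27 and 49 at 2 h (1.55 ± 0.540 CPM) and 24, 33 and 32 at 4 h (1.52 ± 0.171 CPM). These 3 times overlapped with each other and none of their libraries overlapped with 0, 8 or 24 h. At 8 h it had 2, 3 and 1 counts (0.0882 ± 0.0480 CPM) and at 24 h 3, 9 and 6 counts (0.217 ± 0.112 CPM). The *Csf2* rate over the NT group was 22.8, 30.2, 29.4, 1.88 and 4.91 times the limit at 0 h at the 5 times. These ratios leave out counting error after IL-1β. At 8 h, with 6 counts, the exact Poisson interval (95%) from 0.0326 to 0.194 CPM on unscaled totals includes the limit. The edgeR test against 0 h passed both thresholds at each of the 5 times, with an adjusted p-value of 0.0353 at 8 h. The call at 8 h did not hold when any of the 3 replicate numbers was left out (adjusted p from 0.0517 to 0.123), nor on log2(TPM + 1) with limma (adjusted p = 0.360). Between 4 and 8 h in NT the log2 change was −4.09 (standard error 0.496, edgeR adjusted p = 3.68e-07). The other steps, 0.48 from 1 to 2 h, −0.02 from 2 to 4 h and 1.29 from 8 to 24 h, did not pass.

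In IFT88siRNA, *Csf2* had 6, 4 and 11 counts at 1 h (0.285 ± 0.154 CPM), 22, 25 and 21 at 2 h (0.970 ± 0.155 CPM) and 24, 25 and 20 at 4 h (1.06 ± 0.202 CPM). It had 5, 6 and 4 counts at 8 h (0.190 ± 0.0463 CPM) and 1, 7 and 2 at 24 h (0.0907 ± 0.0680 CPM). The libraries at 2 and 4 h overlapped and were above those of every other time. The group rates were 7.11, 23.0, 25.1, 5.09 and 2.90 times the limit at 0 h at the 5 times, again without counting error after IL-1β. The edgeR test passed both thresholds at each time. At 24 h it no longer passed without replicate 2 (edgeR adjusted p = 0.111) or on log2(TPM + 1) (limma adjusted p = 0.232). Counting error is large at these numbers: 69 counts over the 3 NT libraries at 1 h are 1.08 CPM on unscaled totals with an exact Poisson interval (95%) from 0.839 to 1.36, and 21 counts in IFT88siRNA are 0.272 CPM (0.168 to 0.416). The reads carry no molecular identifiers and so are not independent molecules, and these intervals and limits cover counting error only. The antisense gene *Gm12223* overlaps 96 of the 800 exonic bases of *Csf2* (chr11:54247600-54247695). It had at most 1 count in a library and 10 in all, and the strand of the *Csf2* reads was not checked. Of the 11 neighbouring pairs of *Csf2* conditions in the order of mean CPM, 9 overlapped.

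*Csf3* was close to the detection limit at 0 h, was raised to a low level at 1 and 2 h and gained most in CPM between 2 and 4 h, when *Csf1* was already falling. In NT it had 4, 1 and 5 counts at 0 h (0.144 ± 0.0928 CPM), 17, 17 and 24 at 1 h (0.942 ± 0.224 CPM) and 23, 34 and 46 at 2 h (1.6 ± 0.424 CPM). At 4 h the counts were 245, 356 and 340 (16.1 ± 2.11 CPM), at 8 h 198, 195 and 294 (9.64 ± 1.16 CPM) and at 24 h 179, 135 and 165 (5.76 ± 0.851 CPM). Every library at 4, 8 and 24 h was above every library at the earlier times, and none overlapped between these 3 times. The mean was 6.54, 11.1, 112, 67.0 and 40.1 times the 0 h mean, which itself rests on 10 counts over 3 libraries. The log2 change from 0 h was 2.67 at 1 h, 3.45 at 2 h, 6.78 at 4 h (standard error 0.259, edgeR adjusted p = 3.08e-17), 6.04 at 8 h and 5.29 at 24 h, and each passed both thresholds. From one time point to the next the log2 change in NT was 0.78 from 1 to 2 h, 3.33 from 2 to 4 h, −0.74 from 4 to 8 h and −0.75 from 8 to 24 h, and each step passed. The step from 1 to 2 h no longer passed without replicate 2 (edgeR adjusted p = 0.146) or without replicate 3 (0.0955). On TPM with limma it did not pass either (0.39 on log2(TPM + 1), adjusted p = 0.0785), the step from 4 to 8 h was below the fold threshold (−0.54), and with a pseudocount of 0.1 neither fall passed (adjusted p = 0.272 and 0.188).

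In IFT88siRNA, *Csf3* had 2, 4 and 0 counts at 0 h (0.0696 ± 0.0703 CPM), 15, 12 and 27 at 1 h (0.730 ± 0.342 CPM) and 27, 22 and 37 at 2 h (1.21 ± 0.253 CPM). It had 219, 225 and 257 at 4 h (10.7 ± 0.497 CPM), 102, 87 and 79 at 8 h (3.44 ± 1.01 CPM) and 88, 132 and 85 at 24 h (3.13 ± 0.369 CPM). The highest level was again at 4 h, but the libraries at 8 and 24 h overlapped. The log2 changes from 0 h were 3.29, 4.04, 7.17, 5.51 and 5.39, and each passed both thresholds by edgeR. In the order of the 12 conditions, 6 of the 11 neighbouring pairs overlapped.

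**Figure D2:**
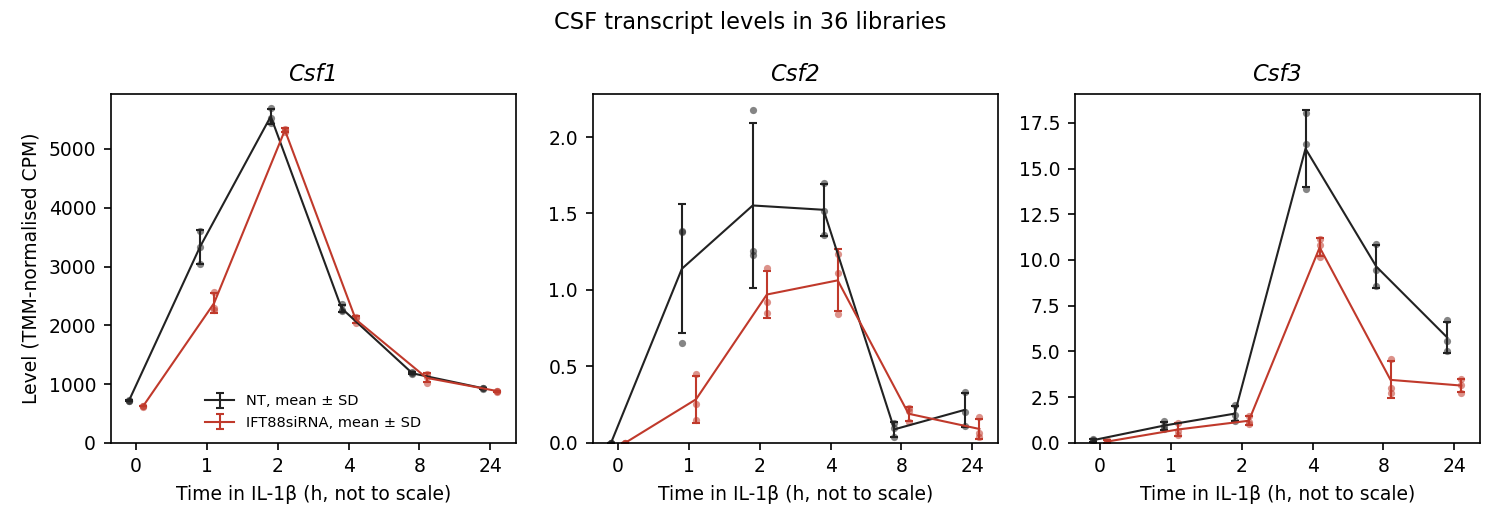
Level of each gene (vertical axis, TMM-normalised CPM from 0, a separate scale for each gene) by time in IL-1β (horizontal axis in h, not to scale), with points for the 36 libraries and lines with mean ± SD for the 3 libraries of a condition, NT and IFT88siRNA. *Csf1* peaks at 2 h in both groups, *Csf2* lies at its highest from 1 to 4 h in NT and at 2 and 4 h in IFT88siRNA, and *Csf3* peaks at 4 h, with NT above IFT88siRNA from 4 h on.

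Set against all genes, *Csf1*, *Csf2* and *Csf3* were raised in NT at 1 h (3 of 3), where 9.22% of 16048 tested genes were. At 2 h the 3 were raised again, against 13.0% of genes, at 4 h against 16.3% and at 8 h against 11.8%. At 24 h *Csf2* and *Csf3* were raised, against 6.61% of genes. In IFT88siRNA the 3 were raised at 1 h (6.82% of 16129 genes), 2 h (12.4%), 4 h (16.0%) and 8 h (10.5%), and *Csf2* and *Csf3* at 24 h (6.36%). From one NT time point to the next, *Csf1* and *Csf3* changed at 2 h, where 11.9% of genes changed in either direction. At 4 h *Csf1* (−1.27) and *Csf3* (3.33) changed in opposite directions, with 27.1% of genes changed. All 3 fell between 4 and 8 h, where 16.9% of genes changed and the log2 change of *Csf1* was −0.96. Between 8 and 24 h *Csf3* passed both thresholds, *Csf1* (−0.35) was below the fold threshold and *Csf2* (1.29) did not pass the test, and 13.4% of genes changed. On TPM with limma the *Csf1* step from 1 to 2 h was 0.44, below the fold threshold.

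The shapes of the 3 time courses can be compared as a percentage of each gene's own highest NT mean. At 1 h *Csf1* was at 60.0% and *Csf2* at 73.3% of the highest mean, and *Csf3* at 5.85%. At 4 h *Csf1* had come down to 41.2%, while *Csf2* was at 98.2% and *Csf3* at 100%. At 8 h *Csf2* was at 5.68%, *Csf1* at 21.3% and *Csf3* at 59.9%, and at 24 h they were at 13.9%, 16.7% and 35.8%. *Csf2* thus rose with *Csf1*, stayed high until 4 h and was almost gone at 8 h, while *Csf3* kept the highest share of its own maximum at 8 and 24 h. In IFT88siRNA, taken against the gene's own highest IFT88siRNA mean, the values of *Csf2* were 26.8% at 1 h, 91.3% at 2 h and 17.9% at 8 h, and those of *Csf3* were 32.2% at 8 h and 29.3% at 24 h.

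**Figure D3:**
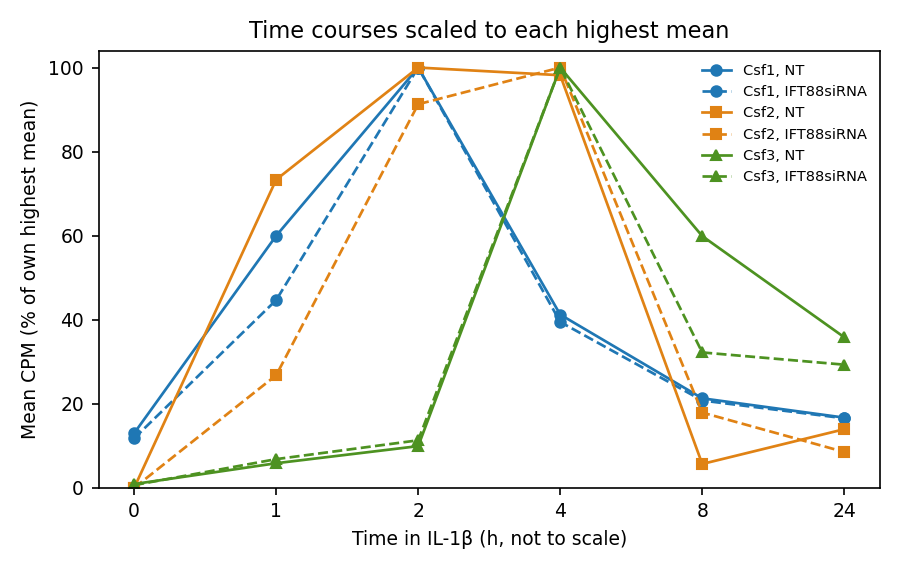
Mean CPM as a percentage of the gene's own highest mean in the same siRNA group (vertical axis) by time in IL-1β (horizontal axis in h, not to scale), for the 3 genes in NT and IFT88siRNA. *Csf1* reaches 100% at 2 h and *Csf3* at 4 h in both groups, while *Csf2* in NT stands at 73.3% at 1 h against 26.8% in IFT88siRNA.

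Per transcript length, the 3 genes differed in level by orders of magnitude. Mean TPM of *Csf1* in NT was 391 at 0 h, 1851 at 1 h, 2508 at 2 h, 1050 at 4 h, 612 at 8 h and 459 at 24 h. This placed it at rank 330 of 21927 protein-coding genes at 0 h and at rank 26 at 2 h, when it took 0.505% of all counts on genes, against 0.0802% at 0 h. The fold over 0 h at 2 h was 6.41 in TPM and 7.69 in CPM. Mean TPM of *Csf2* reached 3.33, 4.07 and 4.37 at 1, 2 and 4 h, and that of *Csf3* 1.18, 1.86 and 18.9. *Csf3* was then at 12.7 TPM at 8 h and 7.54 TPM at 24 h, and *Csf2* at 0.249 and 0.703 TPM. The order of the 2 minor genes thus changed with time, from a *Csf3* to *Csf2* ratio of 0.353 at 1 h and 0.457 at 2 h to 4.34 at 4 h, 50.8 at 8 h and 10.7 at 24 h. *Csf1* made up 97.8% of the summed TPM of the 3 genes at 4 h, its lowest share in NT, and its ratio to *Csf3* came down from 1575 at 1 h to 55.4 at 4 h.

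The comparison of IFT88siRNA with NT at each time point addresses whether these transcripts differ with depletion of *Ift88* mRNA before and during the response to IL-1β. With 1 siRNA pool against 1 control pool, an effect of *Ift88* depletion and one of the pool itself cannot be told apart. *Csf1* was lower in IFT88siRNA at 0 and 1 h by less than 1.5-fold, *Csf2* was lower at 1 h, and *Csf3* was lower at 4, 8 and 24 h. edgeR called no member higher at the times where it was tested. *Csf2* had more counts in IFT88siRNA than in NT at 8 h, but was under the filter on low counts there.

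For *Csf1* at 0 h the 3 NT libraries had 734, 716 and 716 CPM and the 3 IFT88siRNA libraries 618, 631 and 632 CPM, which do not overlap. The log2 change was −0.20 (standard error 0.0354, edgeR adjusted p = 0.000262). At 1 h the NT libraries had 3339, 3045 and 3611 CPM and the IFT88siRNA libraries 2261, 2299 and 2571 CPM, again apart, with a log2 change of −0.49 (standard error 0.0553, edgeR adjusted p = 2.52e-05). Both changes are below the 1.5-fold threshold, and without it 9.43% of genes at 0 h and 10.2% of genes at 1 h were lower. At 2, 4, 8 and 24 h the log2 changes were −0.07, −0.13, −0.11 and −0.08, with edgeR adjusted p-values from 0.142 to 0.428. At 1 h limma on log2(TPM + 1) gave −0.59 (adjusted p = 0.0215), which passes both thresholds, but it did not pass with no filter on TPM. The ranges of the 2 groups in CPM were apart at each time but 8 h, also at 2, 4 and 24 h, where the test did not pass. The share of all genes with ranges apart was not counted. The only libraries with overlap in TPM were those at 24 h.

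*Csf2* at 1 h had 1.39, 0.651 and 1.38 CPM in NT and 0.252, 0.149 and 0.452 CPM in IFT88siRNA, so that the groups did not overlap. The log2 change was −1.98 (standard error 0.403, edgeR adjusted p = 0.00299), and it passed whichever single library was left out (adjusted p from 0.000712 to 0.0182). With 26, 15 and 28 counts in NT against 6, 4 and 11 in IFT88siRNA, *Csf2* met the filter on low counts through the NT libraries. The comparison at 1 h, also with a library left out, is not independent of that. The change was −0.70 at 2 h (standard error 0.284, edgeR adjusted p = 0.237) and −0.54 at 4 h (standard error 0.251, edgeR adjusted p = 0.274), where the CPM ranges did not overlap either. In TPM the ranges overlapped at 2 h and were apart at 4 h. As for *Csf1*, ranges apart were not counted over all genes. At 2 h the NT libraries had 1.25, 1.23 and 2.18 CPM and the IFT88siRNA libraries 0.918, 1.14 and 0.847 CPM. At 4 h they had 1.36, 1.51 and 1.70 CPM against 1.11, 1.24 and 0.840 CPM. *Csf2* was under the filter on low counts at 0, 8 and 24 h. At 8 h the counts ran the other way, with 1 to 3 in NT and 4 to 6 in IFT88siRNA, and the fit of all 36 libraries gave a log2 change of 1.10 (edgeR adjusted p = 0.334). On TPM the change at 1 h did not pass (limma on log2(TPM + 1), −1.31, adjusted p = 0.0540).

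*Csf3* at 4 h had 13.9, 16.3 and 18.1 CPM in NT and 10.1, 11.1 and 10.8 CPM in IFT88siRNA. At 8 h it had 9.43, 8.59 and 10.9 CPM against 4.60, 3.01 and 2.72 CPM, and at 24 h 6.69, 5.02 and 5.59 CPM against 3.48, 3.17 and 2.75 CPM. At all 3 times each NT library was above each IFT88siRNA library, and how many of all genes had groups apart in this way was not counted. The log2 change was −0.60 at 4 h (standard error 0.102, edgeR adjusted p = 0.00321), −1.53 at 8 h (standard error 0.172, edgeR adjusted p = 0.000856) and −0.89 at 24 h (standard error 0.137, edgeR adjusted p = 0.000681). At 1 and 2 h it was −0.38 and −0.41 with edgeR adjusted p-values of 0.463 and 0.456, and the libraries overlapped. At 0 h *Csf3* was under the filter. The call at 4 h stands close to the fold threshold, and fell below it without NT replicate 2 (−0.58), NT replicate 3 (−0.51) or IFT88siRNA replicate 1 (−0.56). On log2(TPM + 1) with limma the changes at 4 h (−0.57, adjusted p = 0.119) and at 24 h (−0.75, adjusted p = 0.0519) did not pass.

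Over all genes tested, calls of a lower level in IFT88siRNA were made for 1.56% of genes at 0 h, 2.47% at 1 h, 0.462% at 2 h, 0.399% at 4 h, 0.613% at 8 h and 0.598% at 24 h. Of the members tested, 0 of 1 was called at 0 h (*Csf1* had an unadjusted p of 7.65e-06 and a fold under the threshold), 1 of 3 at 1 h, 0 of 3 at 2 h (*Csf2* had an unadjusted p of 0.0312), 1 of 3 at 4 h, 1 of 2 at 8 h and 1 of 2 at 24 h. With 3 libraries against 3, an exact permutation test of a single gene cannot give a p-value under 0.1. With the 6 time points tested together over the 36 libraries, *Csf2* (edgeR adjusted p = 0.00111) and *Csf3* (2.51e-08) passed both thresholds and *Csf1* (1.13e-08) did not reach the fold, where 5.19% of 16710 genes passed. The call of *Csf2* was lost without replicate 1 (adjusted p = 0.0889).

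**Figure D4:**
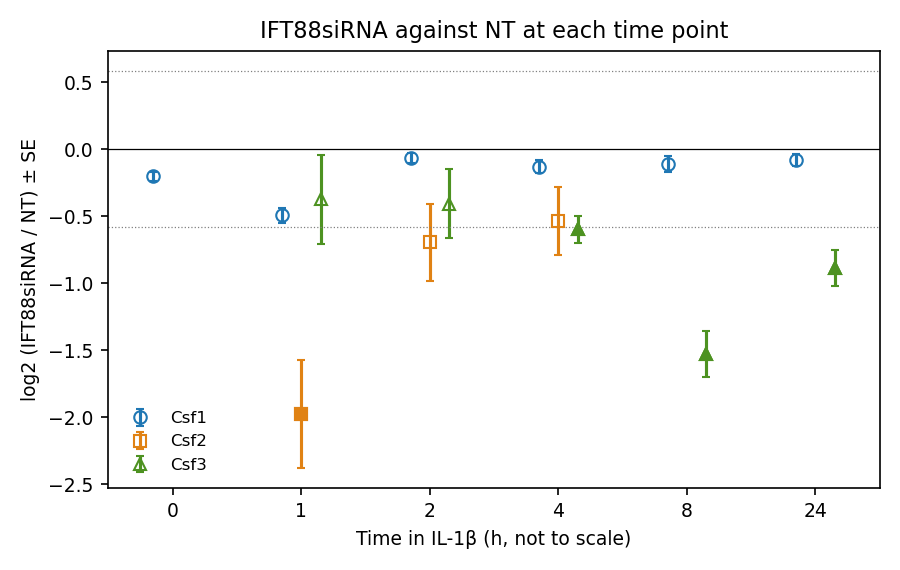
Log2 ratio of IFT88siRNA to NT with its standard error (vertical axis, 0 is no difference) by time in IL-1β (horizontal axis in h, not to scale) for the members that passed the filter on low counts at that time. *Csf1* lies between −0.49 (at 1 h) and −0.07 (at 2 h), *Csf2* is at −1.98 at 1 h, and *Csf3* reaches −1.53 at 8 h.

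Whether the change from 0 h itself differed between the groups was tested by the interaction of siRNA and time over the 5 times together. Both thresholds were passed by 1.2% of 16710 genes, and the adjusted p alone by 924. *Csf1* had an adjusted p of 0.000254, with the largest term at 1 h (−0.28, standard error 0.0689, adjusted p = 0.0181), below the fold threshold. This term did not pass when any of the 3 replicate numbers was left out (edgeR adjusted p from 0.0614 to 0.356). Without replicate 1 the joint value for *Csf1* was 0.206 and did not pass, and without replicate 2 (0.00369, edgeR) or replicate 3 it did. The values for *Csf2* (adjusted p = 0.138) and *Csf3* (adjusted p = 0.0565) did not pass in edgeR, and both have few or no counts at 0 h. Under other choices of processing *Csf3* passed, with its largest term above 0 in some and below 0, at 8 h, on TPM, and its counts at 0 h were from 0 to 5. Taking 1 h in place of 0 h as the reference, a comparison added after the data were seen, the siRNA difference varied among the times after IL-1β for *Csf1* (edgeR adjusted p = 0.000174, 0.43 at 2 h, below the fold threshold) and for *Csf3* (edgeR adjusted p = 0.0406, −1.15 at 8 h). Both thresholds were passed by 1.07% of genes, with *Csf3* among them and *Csf1* not. The share that passed the adjusted p alone was not counted. For *Csf2* the value was 0.106 (edgeR). For *Csf1* this did not pass without replicate 1 (adjusted p = 0.183). The call for *Csf3* was lost when replicate 1, 2 or 3 was left out (adjusted p from 0.214 to 0.237).

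Apart from *Csf2ra*, the receptors through which these factors act had few or no reads. *Csf2ra*, the α chain that binds CSF2, was the best expressed, at 5.11 to 9.82 TPM over the libraries, and was not called in either comparison. *Csf2rb*, the shared signalling β chain, had at most 3 counts and was at 0 in 24 of 36 libraries, and *Csf2rb2*, the mouse β chain of the IL-3 receptor and a close copy with which reads could be shared, had at most 4 counts. *Csf3r* had at most 5 counts and was at 0 in 26 libraries.

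*Csf1r*, the CSF1 receptor, had 3 counts over the 3 NT libraries at 0 h and 26, 29, 37, 23 and 4 at the 5 times after IL-1β. It was called raised at 1, 2, 4 and 8 h by edgeR (fitted log2 changes of 3.14, 3.25, 3.74 and 2.79), yet its mean in NT was at most 0.244 TPM. In IFT88siRNA it had 10, 13, 15, 25 and 10 counts at these times, and at 4 h the change against NT was −1.46 (edgeR adjusted p = 0.0661). *Il34*, which encodes the other ligand of CSF1R, was at 1.47 to 6.35 TPM and rose in NT at 1, 2 and 4 h (log2 changes of 0.64, 0.61 and 0.90), and was not called against siRNA. Of the 6 genes of this list, 3 passed the filter on low counts and 2 rose in NT. Between IFT88siRNA and NT edgeR called 0 of the 3, and 2 had an unadjusted p under 0.05 at a time point (share of all genes not counted).

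**Figure D5:**
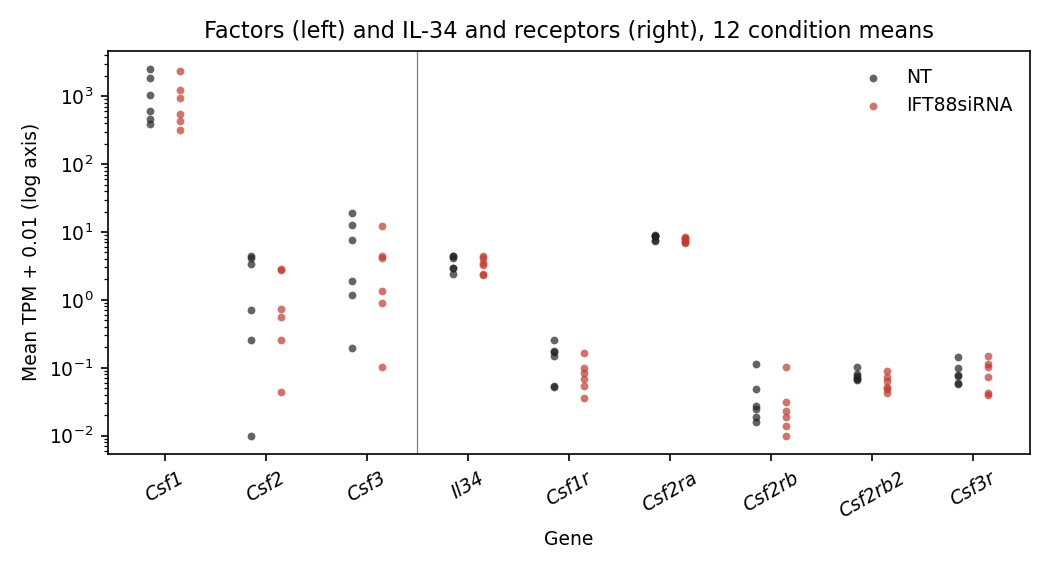
Mean TPM + 0.01 of the 12 conditions (vertical log axis, a point for each condition, NT and IFT88siRNA) for the 3 factors on the left and for *Il34* and the receptor genes on the right. *Csf1* lies highest, *Csf2ra* is the only receptor chain with means above 1 TPM, and the means of *Csf1r*, *Csf2rb*, *Csf2rb2* and *Csf3r* are at most 0.244 TPM.

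Among 18 genes of CSF receptor signalling, which holds Janus kinases, STAT factors and their feedback inhibitors, 11 rose and 3 fell in NT at 1 or more times, against 26.8% and 29.7% of all genes tested. *Socs3*, a feedback inhibitor of CSF3R and gp130 receptors, fell at 1 h (−0.70) and reached a log2 change of 2.57 at 24 h. *Socs1*, the inhibitor of Janus kinases, was highest at 2 h (2.42). *Stat5a*, which CSF2 activates in blood cells, had 2.12 at 4 h. The median log2 change of the list was 0.20, 0.33, 0.91, 0.18 and 0.051 at the 5 times, and that of all genes lay between −0.0194 and −0.00773. In IFT88siRNA against NT, edgeR called 0 of the 18 (all genes: 1.16% higher and 4.22% lower at 1 or more times), although 15 had an unadjusted p under 0.05 at a time point and 11 an adjusted p under 0.05 with a fold under the threshold. At any fold, 2979 of 15274 genes had an edgeR adjusted p under 0.05 at 0 h and 2808 of 14797 at 1 h. The share of all genes at 1 or more times was not counted at any fold.

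Of 11 other haematopoietic growth factors and type 2 cytokines, 7 passed the filter, and *Il3*, *Il5*, *Il13* and *Epo* had at most 7 counts. In NT 4 rose and 4 fell (all genes: 26.8% and 29.7%), with *Kitl* in both. *Tslp*, an alarmin that acts on dendritic cells, rose at each time to 8 h, with 4.20 at 4 h (standard error 0.111, edgeR adjusted p = 1.92e-20), and *Il11*, a gp130 cytokine, had 2.06 at 4 h. *Thpo*, the platelet growth factor, fell to −0.87 at 24 h, and *Kitl*, the stem cell factor gene, was at 0.76 at 1 h and −0.82 at 4 h. Against NT, 2 of the 7 were lower in IFT88siRNA and 0 higher (all genes: 4.22% and 1.16%), and 4 had an edgeR adjusted p under 0.05 at a time point (share of all genes not counted). The 2 were *Tslp* by −0.93 at 0 h and −1.0 at 8 h, and *Il11* by −0.89 at 8 h (edgeR adjusted p = 0.0498). The median siRNA difference of the list was −0.29 at 0 h, −0.29 at 1 h and −0.26 at 8 h.

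Of 21 transcription factors known to act on CSF promoters, 18 rose and 3 fell in NT at 1 or more times, where 26.8% and 29.7% of all genes did. *Junb* and *Fos*, subunits of AP-1, had log2 changes of 3.99 and 3.62 at 1 h. The highest NT mean came at 2 h for *Csf1* and at 4 h for *Csf3*, while *Csf2* libraries overlapped between 1, 2 and 4 h. *Nfatc2* had 5.13 at 2 h, at no more than 1.94 TPM, and *Cebpd*, a C/EBP factor, had 4.20 at 4 h and was still at 3.59 at 24 h. The list's median was 0.99, 1.86, 1.28, 0.63 and 0.31 at the 5 times. In IFT88siRNA 0 were higher and 3 lower (all genes: 1.16% and 4.22%), *Fosl1* by −0.68 at 0 h and −0.59 at 24 h, *Egr1* by −0.61 at 4 h and *Fos* by −0.60 at 4 h. In all 20 of the 21 had an unadjusted p under 0.05 at a time point, and 17 an edgeR adjusted p under 0.05.

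Among 11 regulators of the decay of AU-rich and stem-loop mRNAs, 6 rose and 0 fell in NT, against 26.8% and 29.7% of all genes. *Zfp36*, whose protein tristetraprolin binds AU-rich elements and promotes decay of the *Csf2* mRNA, had its highest change at 1 h (3.96) and was at 2.02, 1.45 and 0.62 at 2, 4 and 8 h. *Zc3h12a*, which encodes the RNase regnase-1, had 5.28 at 2 h and was still at 3.92 at 24 h. *Arid5a*, which counters regnase-1 on some mRNAs, had 2.22 at 4 h, and *Zfp36l1* had 1.45 at 1 h. The list's median was 0.23, 0.41, 0.91, 0.12 and 0.030 at the 5 times. Between IFT88siRNA and NT, edgeR called 0 of the 11, while 8 had an unadjusted p under 0.05 at a time point and 4 an adjusted p under 0.05 (shares of all genes not counted).

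Genes with the most similar profile were found by Pearson's r over the 12 condition means of log2 CPM. These are descriptions, since the points share the 2 time courses and many genes follow IL-1β. For *Csf1* they were *Stx11* (r = 0.991), *Pxdc1* (0.990), *Tatdn2* (0.985), *Supt6* (0.983) and *Gm37565* (0.981). *Stx11*, a SNARE gene, rose by 3.6 on the log2 scale at 2 h in NT, and *Supt6*, an elongation factor gene, was not called at any time. For *Csf2* they were *Cd69* (r = 0.963), *Tmem63a* (0.956), *Mir155hg* (0.955), *Patl1* (0.949) and *Lif* (0.947). For *Csf3* they were *Acod1* (r = 0.989), *Ptx3* (0.982), *Slc2a6* (0.979), *Slc7a2* (0.978) and *Mt2* (0.976). The members themselves gave r = 0.887 for *Csf1* with *Csf2*, 0.470 for *Csf2* with *Csf3* and 0.182 for *Csf1* with *Csf3*. On log2(TPM + 1), 2 of the 5 genes were shared for each member, and with Spearman's rho 1, 0 and 2 for *Csf1*, *Csf2* and *Csf3*.

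Of the 5 genes most like *Csf1*, edgeR called 0 between IFT88siRNA and NT, and 2 had an unadjusted p under 0.05 at a time point. *Stx11* alone had an edgeR adjusted p under 0.05, at 1 h (−0.34) and 4 h (−0.36), with a fold under the threshold. Of the 5 most like *Csf2*, 3 were lower in IFT88siRNA at 1 h, where 2.47% of all genes were. *Cd69*, an early activation receptor, had a log2 change of −1.33 (edgeR adjusted p = 0.0411), *Mir155hg*, the host transcript of miR-155, −1.56 (edgeR adjusted p = 0.000560), and *Lif*, a cytokine of the IL-6 family, −0.71 (edgeR adjusted p = 8.31e-05). *Mir155hg* was also lower at 4 h (−0.70) and *Lif* at 8 h (−0.87) and 24 h (−0.76). Of the 5 most like *Csf3*, *Acod1*, which encodes the enzyme that makes itaconate, was lower at 8 h (−0.92) and 24 h (−0.60) and *Slc2a6*, a glucose transporter gene, at 1 h (−0.67), while *Ptx3*, *Slc7a2* and *Mt2* were not called. All 5 of the genes most like *Csf3* had an edgeR adjusted p under 0.05 at a time point (share of all genes not counted), the uncalled ones with a fold under the threshold. The likeness was computed with the siRNA conditions in it, so that these values are not independent of it.

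The protein-coding genes beside the members on the chromosome were looked at for changes of their own. Within 100 kb of *Csf1* the protein-coding gene was *Ahcyl1*, 44488 bases away, with no change over 1.5-fold in NT. Beside *Csf2*, *Il3*, the IL-3 gene 15636 bases away, had at most 1 count, and *Acsl6*, 54131 bases away, had at most 13 counts and was called at 4 h (1.32). Around *Csf3* lay *Med24* (962 bases away) and *Psmd3* (5284 bases), with no change over 1.5-fold in NT. *Thra* (37009 bases), the thyroid hormone receptor α gene, rose at 1 and 2 h (0.95 and 0.82), and *Nr1d1* (64303 bases), the circadian repressor REV-ERBα gene, fell at 8 h (−1.09). *Msl1* and *Gm12355* were not called, and *Gsdma*, *Gsdma2* and *Gsdma3* had at most 6 counts. Between IFT88siRNA and NT edgeR called 0 of the 7 that could be tested, and 6 had an unadjusted p under 0.05 at a time point. An adjusted p under 0.05 was reached by 4, with a fold under the threshold (shares of all genes at any fold not counted). Among them *Thra* was higher at 0 h (0.53, edgeR adjusted p = 6.77e-08), while *Nr1d1* was lower at 1 h (−0.19, edgeR adjusted p = 0.0393).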

How the data were processed

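Poly(A) RNA of 36 libraries was sequenced by the authors as paired-end reads. For alignment the authors used HISAT2 2.1.0 and GRCm38, and they deposited raw counts per gene made with featureCounts (Subread 1.6.3), whose default setting ignores strand. They also deposited TPM values per gene, estimated with Salmon 0.9.1. Versions are those of the submitters' processing notes.

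The counts were tested with edgeR 4.0.16 (R 4.3.3). Libraries were scaled with TMM, low counts removed with filterByExpr, and quasi-likelihood F-tests made two-sided, with the p-values adjusted after Benjamini and Hochberg over all genes tested. Calls needed an adjusted p under 0.05 together with a change of over 1.5-fold. Standard errors were derived from the log2 change and F. IFT88siRNA and NT were compared with 3 libraries each at a time point, IL-1β against 0 h over the 18 libraries of a group, and time points together over 36 libraries. Depth was from 19337022 to 38304127 counts per library. Pairs of replicates differed by more than counting error (chi-square per degree of freedom from 1.71 to 10.9), so that none was merged.

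Named are the 3 members, *Ift88*, up to 4 called genes of each list by the size of the change, all receptor genes, the 5 genes most like each member, and protein-coding neighbours within 100 kb. The members, lists and tests were chosen with earlier results of these data known. Gene positions and 3′ UTRs came from GENCODE for GRCm38, and upstream sequence from RefSeq (GRCm38.p6). The steps were tested on simulated data. Alternatives were DESeq2 1.42.0, its size factors, no filter, no fold threshold, the replicate block, 36 libraries in 1 fit and single replicates left out. TPM was also tested by limma 3.58.1 as log2(TPM + 1), where genes needed 1 TPM in 3 libraries, with 0.1 as pseudocount, or unfiltered.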

Additional observations from a re-analysis of the deposited data

Results flagged for a closer look

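The siRNA effect on *Csf1* differed between time points by a test of the difference itself, which did not pass without replicate 1 (edgeR adjusted p = 0.206 against 0 h and 0.183 against 1 h as the reference). Its change from 0 h was smaller in IFT88siRNA at 1 h (−0.28 on the log2 scale, edgeR adjusted p = 0.0181), and the 5 times together gave an adjusted p of 0.000254. The single term at 1 h did not pass when any of the 3 replicate numbers was left out (edgeR adjusted p from 0.0614 to 0.356). Relative to 1 h, the siRNA difference of *Csf1* was higher by 0.43 at 2 h (edgeR adjusted p = 0.00226), 0.36 at 4 h (0.00565), 0.39 at 8 h (0.00102) and 0.41 at 24 h (0.000191), with 0.000174 for the 4 times together. All of these are under the 1.5-fold threshold, and they share the libraries at 1 h.

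For *Csf3* the siRNA difference varied among the times after IL-1β (edgeR adjusted p = 0.0406 for the times together), with its largest term at 8 h relative to 1 h (−1.15). It did not pass without replicate 1, 2 or 3 (adjusted p from 0.214 to 0.237) or on log2(TPM + 0.1) (limma adjusted p = 0.676), and the comparisons relative to 1 h were added after the data were seen. For *Csf2* the single term at 8 h relative to 1 h was 3.07 (edgeR adjusted p = 0.0437), where the 3 NT libraries had 1 to 3 counts and the 3 IFT88siRNA libraries 4 to 6, and the times together did not pass (adjusted p = 0.106).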

How the results depend on the processing

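The deposited counts limit *Csf2* most, since a library holds at most 49 of its reads, and the fold change of *Csf2* and *Csf3* from 0 h rests on libraries with 0 to 5 counts. On TPM, *Csf1* at 1 h passed both thresholds with pseudocounts of 1 and 0.1 (−0.59) but not with no filter. Its 6 times together passed in all of these (−0.59). *Csf2* at 1 h did not pass (−1.31 with a pseudocount of 1, also with no filter, and −2.08 with 0.1), nor did *Csf3* at 4 h (−0.57 and −0.61) or 24 h (−0.75 and −0.88), and with no filter on TPM *Csf3* at 8 h was also lost (−1.35).

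The difference in the change from 0 h of *Csf3*, with a largest term of 0.61 at 1 h in edgeR, passed with no filter on counts (0.64) and with DESeq2 (0.67). On TPM the largest term was that at 8 h, −1.24 with a pseudocount of 1, where the times together passed (adjusted p = 0.00899), and −1.08 with 0.1, where they did not. The 8 h term was below 0 in edgeR too (−0.54), and other terms turned negative on TPM, with −0.11, −0.16, −0.47 and −0.64 at 1, 2, 4 and 24 h with a pseudocount of 1 and −0.16 and −0.43 at 4 and 24 h with 0.1. That of *Csf2* passed on TPM (−1.35 and −2.42). The *Csf2* difference among the times after IL-1β passed with no filter (3.04) and on TPM (1.63 and 3.07), and that of *Csf3* did not pass with a pseudocount of 0.1 (−1.08). The *Csf2* step from 2 to 4 h in NT changed sign on TPM (0.14 and 0.18), with neither value past the test. The cause of these shifts was not tested.

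With the replicate number as a block, *Csf3* passed the difference in the change from 0 h (0.60, adjusted p = 0.0427) and the *Csf2* step from 2 to 4 h was 0.000765. The block changed no other call of a member. The deviations from the condition means correlated by −0.133 to 0.223 in 18 same-numbered pairs of NT and IFT88siRNA (2 over 0.1) and by −0.103 to 0.0869 in 30 pairs with 0 h, so that the numbers were not taken to pair the samples.

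With single replicates left out, the *Csf3* change at 4 h was from −0.69 to −0.51, and the joint *Csf2* siRNA difference from −2.29 to −1.74. The largest term of the *Csf3* difference in the change from 0 h ran from −1.26 to 2.06, and that among the times after IL-1β from −1.46 to −0.67. The single terms of *Csf3* ran from −0.60 to 2.06, −0.36 to 1.98, −0.51 to 1.70, −1.26 to 0.81 and −0.82 to 1.33 in the order of the 5 times, and the *Csf2* step from 2 to 4 h from −0.16 to 0.23.

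Counts of genes called between IFT88siRNA and NT were 341, 393, 73, 64, 105 and 175 at 0, 1, 2, 4, 8 and 24 h. Over the alternatives that keep the fold threshold they were from 75 to 406, 51 to 473, 11 to 208, 13 to 140, 22 to 583 and 34 to 217, and without it 2979, 2808, 407, 570, 644 and 1318. The 8 h count of 583 was without IFT88siRNA replicate 3. The response differed in 201 genes (62 to 345, and 924 without the fold threshold), and IL-1β changed 8017 in NT (14188 without it).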
